A study of Mus musculus with 2 samples.

Results

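The 10 genes described here are those of the smooth muscle contractile apparatus: Acta2, Actg2, Tagln, Cnn1, Smtn, Lmod1, Myh11, Myl9, Mylk and Myocd. They were found by gene symbol among the gene probes of both arrays, which gave 18 of 41174 probes and 10 of the 22811 genes that could be compared. RNA came from aortas of 16-week-old apoE-/- mice, a strain without apolipoprotein E that forms atherosclerotic lesions. The arch segment, prone to lesions, held the root and arch together with 2 mm of adjoining thoracic aorta. The thoracic segment, resistant to lesions, held the 6 mm that follow. Both segments came from apoE-/- animals, so no wild-type aorta entered the comparison. Vessels were perfused with Triton X-100, a detergent, to strip the endothelium, and 12 µl of RNA extract from each of 6 mice (3 males and 3 females) was pooled per segment. The arch pool and the thoracic pool were hybridised together on 2 Agilent 2-colour arrays with the dyes exchanged. Array 1 carried the arch pool in Cy3 (green) and the thoracic pool in Cy5 (red), and array 2 the reverse.

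There was 1 pool per segment, so the spread between mice was not measured, no test was possible and no p-value is given. Each ± gives a technical SD, over n = 2 arrays of the same pools. Pools or readings said to overlap or not are compared by these same technical readings, 1 per pool and array. Such a statement does not speak to the spread between mice, and the share of all genes without overlap was not counted. A log2 ratio is arch over thoracic throughout, so a positive one means a higher signal in the arch pool. A gene or probe was counted under a 1.2-fold rule when each array showed a difference of 1.2-fold or more and the arrays pointed the same way. It was counted under a 2-fold rule when the mean difference was 2-fold or more and each array showed 1.5-fold or more, again pointing the same way. That SD was 0.06 (log2) at the median gene and 0.18 at the 95th percentile. Of the 41534 gene spots, 78% to 82.1% were well above background in the arch pool and 76.5% to 82.6% in the thoracic pool.

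Smooth muscle shortens when calcium-bound calmodulin activates myosin light chain kinase (Mylk), which phosphorylates the regulatory light chain (Myl9) and so lets the smooth muscle myosin heavy chain (Myh11) pull on actin filaments (Acta2, Actg2). Calponin (Cnn1), transgelin (Tagln), smoothelin (Smtn) and leiomodin (Lmod1) bind those filaments. Myocardin (Myocd) is the coactivator of serum response factor that switches on many of these genes, and their loss marks smooth muscle cells that leave the contractile state in diseased arteries.

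The contractile genes that could be measured differed little between the pools. The mean log2 ratios of the 15 unsaturated probes ran from -0.40 to 0.29. The brightest probe, which stood for its gene, was saturated for Acta2, Tagln and Myl9, so these 3 could pass neither rule and 7 genes were counted. None of the 7 passed the 2-fold rule (0.62% of all genes on unsaturated probes did), and 1 of 7, Actg2, passed the 1.2-fold rule (7.77% of all such genes did). All 18 probes were well above background in all 4 readings, that is, in both pools on both arrays. Of the 7 genes, Actg2, Smtn, Mylk, Myh11 and Cnn1 were above 0 on both arrays, Myocd was below 0 on both, and Lmod1 was at 0.00. Of all genes on unsaturated probes, 32.4% were above 0 on both arrays and 35.2% below. The median of the 7 was 0.15, against -0.01 over all genes compared, and it was 0.03 when the loess fit was left out, a setting under which Cnn1 turned to the other sign. In tissue RNA, fewer smooth muscle cells and less of a transcript per cell cannot be told apart.

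**Figure D1:**
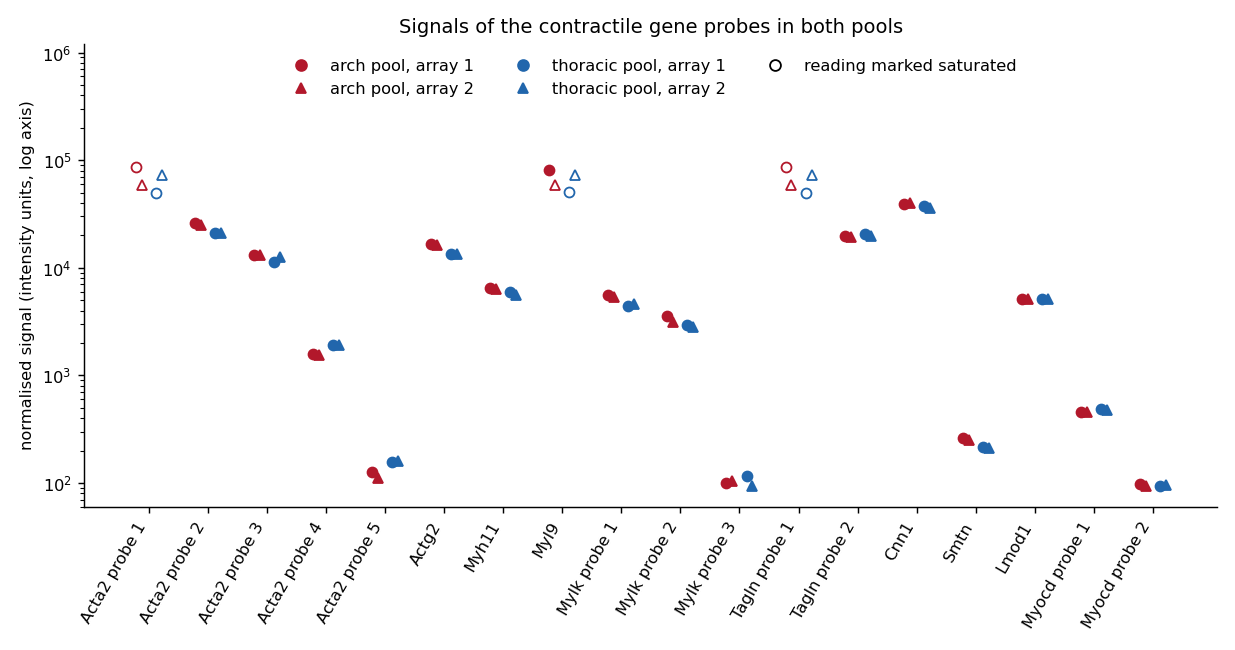
Normalised signal (intensity units, log axis) of the 18 contractile gene probes, with the arch pool in red left of the thoracic pool in blue, circles for array 1 and triangles for array 2. Open symbols are readings marked saturated, and the filled Myl9 circle is the 1 reading of that probe under the ceiling; at the other 15 probes the readings of both pools lie close together. Heights of different probes are not comparable levels.

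At 3 of the 18 probes the signal ran into the scanner's ceiling (64 of all 41174 probes were saturated in at least 1 reading). The brightest Acta2 probe, the brightest Tagln probe and the Myl9 probe were saturated, the first and second in 4 of 4 readings and Myl9 in 3 of 4. At that Acta2 probe, 30 of 30 pixels on array 1 and 29 of 29 on array 2 were at the ceiling in both pools. The log2 ratio came out at 0.79 on array 1 and -0.29 on array 2 for both Acta2 and Tagln. The same pair of values, within 0.788 to 0.790 and -0.29, was returned by each of the 13 probes on the array that were saturated in all 4 readings, whatever their gene. These ratios therefore carry the ceiling and the fit, not the transcript, and no fold is given for them. For Myl9 the arch pool gave a raw reading of 60534 on array 1, under the ceiling of 65329, and was saturated on array 2, while the thoracic pool was saturated on both arrays. No difference in Myl9 could be measured. The rule by which the genes were looked up also allows an older name, Mylc2b, for Myl9, but the probes with that name carry an accession of Myl12b, another light chain, and were not counted.

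Acta2, smooth muscle alpha-actin, had 5 probes, and the 4 unsaturated ones split by direction. Probe 2 read 25938 and 24899 in the arch pool on arrays 1 and 2, against 20924 and 20849 in the thoracic pool. Its arch readings both lay above its thoracic readings, with a log2 ratio of 0.28 ± 0.04. Probe 3 read 13254 and 13270 in the arch pool and 11365 and 12560 in the thoracic pool, a smaller difference of 0.15 ± 0.10. Both of these carry the accession of the Acta2 reference transcript. Probes 4 and 5, designed on 2 other cDNA accessions that the file also names Acta2, pointed the other way. Probe 4 read 1565 and 1539 in the arch pool, against 1916 and 1908 in the thoracic pool (-0.30 ± 0.01). Probe 5 was dim, at 127 and 111 in the arch pool and 155 and 159 in the thoracic pool (-0.40 ± 0.16, and -0.67 in the authors' deposited log ratios). At these dimmer probes the readings of the pools did not overlap, and both probes passed the 1.2-fold rule towards the thoracic pool. Which transcripts they detect was not examined. The saturated probe 1 is listed in the file under a clone name that is a synonym of Acta2. Without loess, probe 2 was at 0.08 and probe 3 at -0.02, so probe 2 kept its sign and probe 3 did not, while probes 4 and 5 stayed below 0.

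Actg2, smooth muscle gamma-actin, the actin of the gut and other visceral muscle, was the 1 contractile gene past the 1.2-fold rule. Its readings were 16685 and 16192 in the arch pool, against 13480 and 13443 in the thoracic pool. The pools did not overlap, and the arch pool was 1.22-fold higher (log2 ratio 0.29 ± 0.03). On array 2 it lay just past the limit, and the call was lost without background subtraction, with saturated spots given no weight in the loess fit, and without loess, where the mean was 0.11. Actin genes are close copies of each other, so part of an actin probe's signal may come from another actin, and this was not tested.

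**Figure D2:**
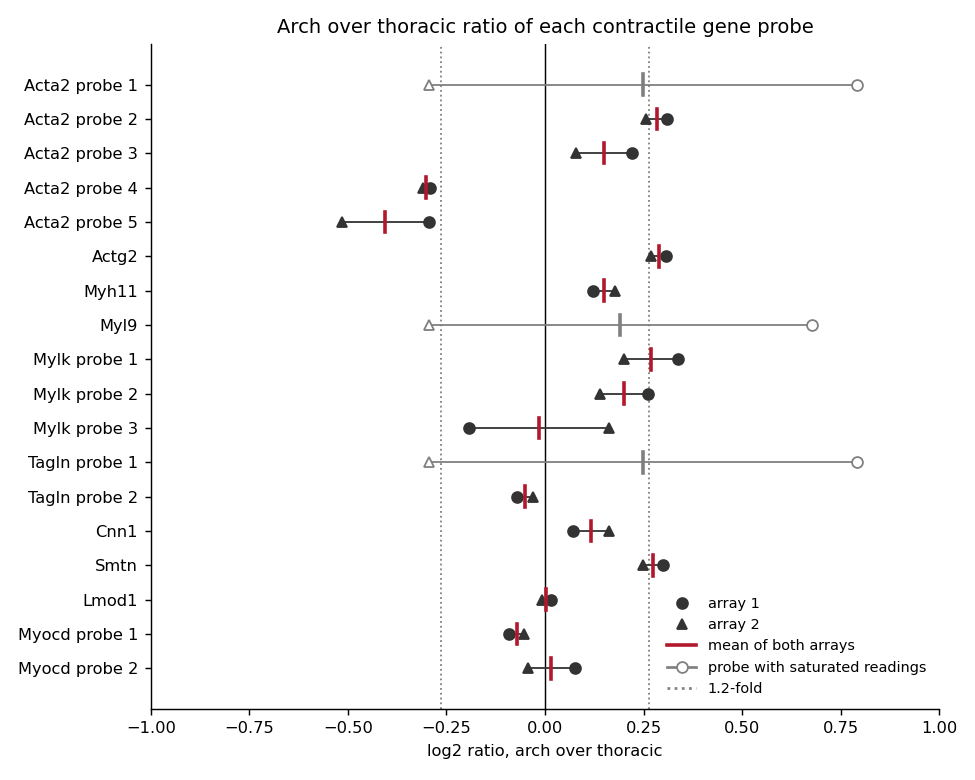
Log2 ratio, arch over thoracic, of each contractile gene probe, with a circle for array 1, a triangle for array 2 and a bar for their mean; dotted lines mark 1.2-fold. The 3 probes with saturated readings (open symbols) give values of opposite sign on the arrays, the unsaturated Acta2 probes stand on both sides of 0, and without loess the means of Acta2 probe 3 and Cnn1 turn below 0.

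Among the proteins that bind the thin filament, values ran from near 0 to just above the 1.2-fold limit. Cnn1, calponin 1, which damps the myosin motor, read 39359 and 39977 in the arch pool and 37450 and 35729 in the thoracic pool. The arch readings were higher by 1.08-fold (0.12 ± 0.06), but the sign turned without loess (-0.12). Tagln, transgelin or SM22-alpha, an early marker of the smooth muscle lineage, had 1 unsaturated probe. It read 19569 and 19240 in the arch pool and 20546 and 19666 in the thoracic pool, so the arch readings were slightly lower (-0.05 ± 0.03, and -0.25 without loess). Its saturated probe would have placed Tagln at 0.25, on the other side of 0.

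Smtn, smoothelin, a protein found in fully differentiated smooth muscle, read 265 and 250 in the arch pool, against 215 and 210 in the thoracic pool. The pools did not overlap, and the mean was 0.27 ± 0.04, with array 2 just under the 1.2-fold limit. It was one of the dimmer probes. Its raw readings were 278 and 301 in the arch pool and 251 and 232 in the thoracic pool, with raw means of negative control spots at 77.0 to 97.1. The Smtn ratio was 0.35 in the authors' deposited log ratios. Lmod1, leiomodin 1, which starts new actin filaments, read 5132 and 5078 in the arch pool and 5078 and 5109 in the thoracic pool. The pools overlapped, and the ratio was 0.00 ± 0.02 (-0.11 without loess).

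The motor and the brighter probes of its kinase lay on the arch side by small amounts. Myh11, the myosin heavy chain specific to smooth muscle, read 6532 and 6351 in the arch pool, against 6000 and 5611 in the thoracic pool. The arch readings were both higher, by 1.11-fold (0.15 ± 0.04, and 0.03 without loess). Mylk had 3 probes. Probe 1 read 5621 and 5325 in the arch pool and 4446 and 4634 in the thoracic pool (0.27 ± 0.10), and probe 2 read 3535 and 3126 in the arch pool and 2951 and 2836 in the thoracic pool (0.20 ± 0.09). In both, the pools did not overlap, and without loess they kept their sign at 0.16 and 0.12. Probe 3, designed on another cDNA, was near background at 101 and 104 in the arch pool and 115 and 93.1 in the thoracic pool. It gave opposite signs on the arrays (-0.02 ± 0.25).

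Myocd, the coactivator that acts on these genes, lay near 0. Probe 1 read 458 and 457 in the arch pool and 487 and 474 in the thoracic pool. The arch readings were lower on both arrays, by a small amount (-0.07 ± 0.03). The sign was the same in the 8 other settings compared, both deposited forms of the ratio among them. Probe 2, close to background, read 99.0 and 93.9 in the arch pool and 93.9 and 96.9 in the thoracic pool (0.02 ± 0.09), and there the pools overlapped.

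**Figure D3:**
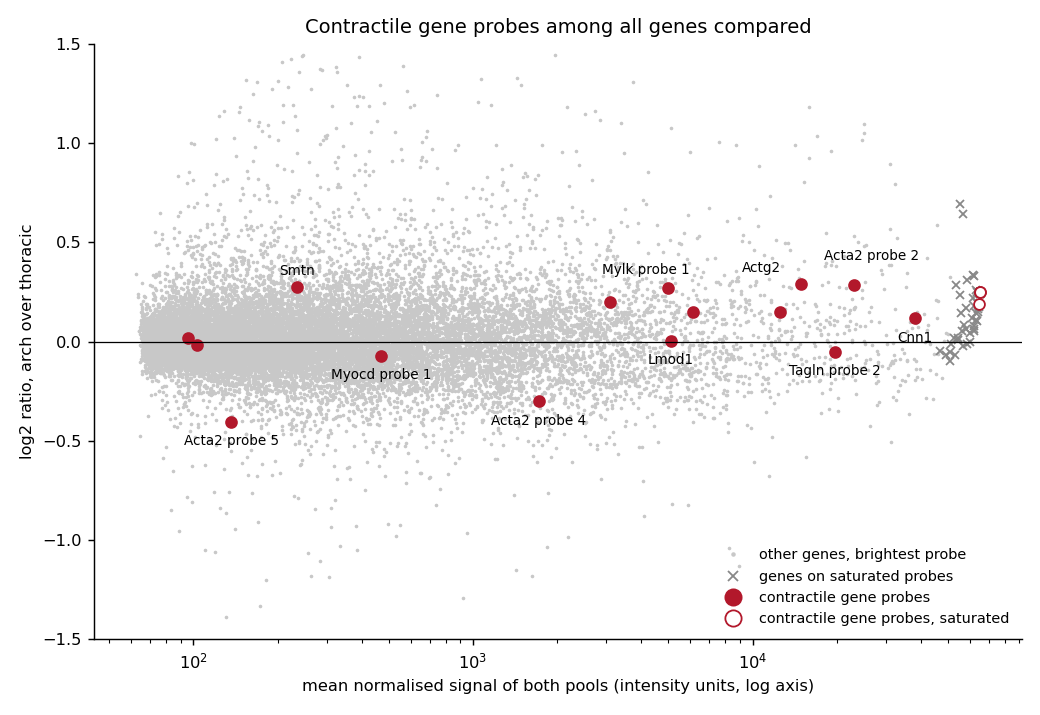
Log2 ratio, arch over thoracic, against mean normalised signal (log axis) for the brightest probe of all other genes compared (grey) and for every contractile gene probe (red, open where saturated; Acta2 probe 3, Myh11, Mylk probes 2 and 3 and Myocd probe 2 are not labelled). The contractile probes lie inside the grey cloud, and the saturated probes form a narrow column at the right; 27 genes lie above the axis and 16 below it.

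Counted by probe, 3 of the 15 unsaturated contractile probes passed the 1.2-fold rule (6.99% of all unsaturated probes did): Actg2 towards the arch, and Acta2 probes 4 and 5 towards the thoracic pool. In sign, 8 of the 15 were above 0 on both arrays (33.4% of all such probes), 4 were below (33.1%) and 3 had opposite signs. Their median was 0.12. For 12 of the 15, the red dye gave the higher raw signal on both arrays, whichever pool it labelled, and this held for 10 of 10 with a signal over 1000. The share of all probes with a brighter red signal was not counted, so this is not read as a trait of the contractile probes. For Cnn1, the raw readings were 30185 in green and 44978 in red for the arch pool, and 32533 in green and 47672 in red for the thoracic pool. At this probe the dyes thus differed by more than the pools did, a difference that the fit and the dye swap have to remove.

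**Figure D4:**
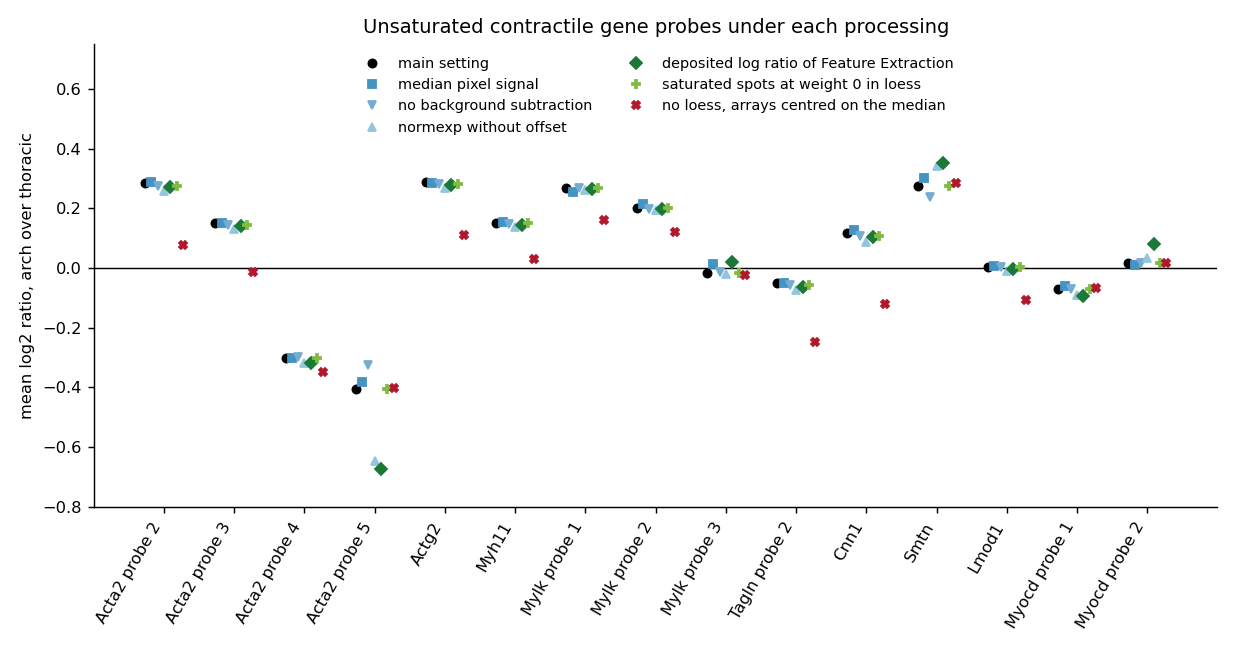
Mean log2 ratio, arch over thoracic, of the 15 unsaturated contractile probes under the main setting and 6 others. The values without loess (red crosses) lie lower at the bright probes, with Acta2 probe 3 at -0.02, Cnn1 at -0.12 and Lmod1 at -0.11, while Acta2 probe 5 and Smtn move away from 0 in the deposited log ratios.

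Serum response factor and myocardin act through the CArG box, a motif of CC, then 6 bases that are each A or T, then GG, which reads alike on both strands. It was searched in the 250 bases before the start of each gene in a RefSeq promoter table (GRCm38.p6), which matched Acta2, Cnn1, Lmod1, Myl9, Mylk and Smtn; Actg2, Myh11, Myocd and Tagln were not analysed here. Of 32851 promoters in the table, 1.47% held an exact match and 8.59% held one with at most 1 G or C among the 6 bases. Among the 6 contractile promoters, Myl9 held 1 exact and 1 near match, Acta2 held 2 near matches, and Cnn1, Lmod1, Mylk and Smtn held none in this window. The stretches of the Acta2 and Myl9 promoters that reach the start are shown because they hold these matches, which are in capitals. They lie at chr19:34255374-34255503 on the minus strand for Acta2, with matches starting 84 and 34 bases before the start, and at chr2:156775289-156775463 on the plus strand for Myl9, with the exact match starting 161 and the near match 99 bases before it.
Acta2: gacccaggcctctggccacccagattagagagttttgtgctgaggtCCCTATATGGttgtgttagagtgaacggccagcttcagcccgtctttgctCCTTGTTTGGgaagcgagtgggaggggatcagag
Myl9: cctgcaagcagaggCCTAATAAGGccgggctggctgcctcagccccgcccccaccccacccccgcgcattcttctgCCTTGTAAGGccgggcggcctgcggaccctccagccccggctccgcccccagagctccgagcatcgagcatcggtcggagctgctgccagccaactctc
These matches describe the letters of the promoters and not sites in use, and these 2 genes are among those whose brightest probe was saturated.

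The surrounding pathway was read in 5 lists of genes by role, 79 genes in all, of which 77 were compared and 72 had a chosen probe without saturation. Of the 72, 11 passed the 1.2-fold rule towards the arch (5.01% of all such genes did) and 5 towards the thoracic pool (2.76%), and 1 passed the 2-fold rule. Besides Acta2, Tagln and Myl9, the intermediate filament gene Vim and the essential light chain Myl6 sat on saturated probes. Actg1 and Elk1 were not compared.

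Actin and thin filament genes had a median of 0.28 over 14 genes without saturation, with 5 past the 1.2-fold rule towards the arch, 0 towards the thoracic pool and 9 past neither limit. Smtnl2, smoothelin-like 2, had the largest ratio of the pathway lists. It read 418 and 443 in the arch pool, against 200.4 and 219 in the thoracic pool, a 2.06-fold difference (1.04 ± 0.03, and 0.94 without background subtraction, under 2-fold). Beside it stood Cnn2, a calponin also made outside smooth muscle (0.47 ± 0.01), and the tropomyosins Tpm3 (0.35 ± 0.08, with a further probe at 0.17) and Tpm4 (0.30 ± 0.01), which lie along actin filaments. Without loess, Tpm3 was at 0.26 and Tpm4 at 0.16, both under the limit.

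Of the 5 myosin genes without saturation, 3 passed the 1.2-fold rule towards the arch and 0 the other way, and the list's median was 0.41. These 3 are nonmuscle forms, which cells of many types use for shape and movement. A further nonmuscle light chain on the list, Myl12a, was at 0.12 ± 0.08 and did not pass (named after its value was seen). The heavy chain Myh10 stood at 0.52 ± 0.19 (further probes at 0.27 and 0.12), the heavy chain Myh9 at 0.42 ± 0.02 (a further probe at 0.02), and the light chain Myl12b at 0.41 ± 0.07 (a further probe at 0.15, and 0.21 without loess, under the limit). The smooth muscle form, Myh11, was at 0.15 ± 0.04. The weaker further probes lower the list's median to 0.22 when each gene is read by the median of its probes.

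Kinases, phosphatase subunits and their regulators had a median of -0.04 over 19 genes, with 2 past the 1.2-fold rule, both higher in the thoracic pool, and none in the arch pool. Both encode subunits of myosin phosphatase, the enzyme that reverses the action of Mylk. Ppp1r12a, its myosin-targeting subunit, read 3286 and 3262 in the arch pool, against 4767 and 4707 in the thoracic pool, 1.45-fold higher in the thoracic pool (-0.53 ± 0.01, with a further probe at -0.23). Ppp1cb, its catalytic subunit, read 25115 and 27508 in the arch pool, against 36814 and 37843 in the thoracic pool, 1.42-fold higher in the thoracic pool (-0.51 ± 0.06). Neither pair of readings overlapped, and both genes stood further below 0 without loess, at -0.63 for Ppp1r12a and -0.73 for Ppp1cb. Other phosphatase genes of the list did not pass: Ppp1r12b at -0.08 ± 0.04, Ppp1r12c at 0.02 ± 0.05 and Ppp1r14a at 0.09 ± 0.19. They were named after their values were seen.

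Genes of dense bodies, intermediate filaments and attachment had a median of 0.02 over 19 genes, with 1 past the 1.2-fold rule in each direction. The LIM domain protein Csrp1 was higher in the arch pool (0.39 ± 0.16). The integrin subunit Itga8, a smooth muscle receptor for the matrix, was higher in the thoracic pool (-0.37 ± 0.08, with further probes at -0.32 and -0.09, and -0.60 without loess). Transcriptional regulators had a median of 0.03 over 15 genes, with 2 past the rule in each direction. Smad3, which carries TGF-beta signals (0.41 ± 0.11, with a further, dim probe at 0.05), and Gata6, a factor of the vascular smooth muscle lineage (0.34 ± 0.00, with further probes at 0.47 and 0.13), were higher in the arch pool. In the thoracic pool, Prrx1, a homeobox factor of mesenchyme, was higher (-0.44 ± 0.11, with 4 further probes well above background between -0.39 and -0.28 and a dim one at 0.02), as was Klf5, a zinc finger factor of activated smooth muscle (-0.50 ± 0.03, with a further, dim probe at -0.09). Klf5 was dim, at 101.0 and 90.0 in the arch pool and 141 and 129 in the thoracic pool, and its ratio was -1.05 in the authors' deposited log ratios.

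**Figure D5:**
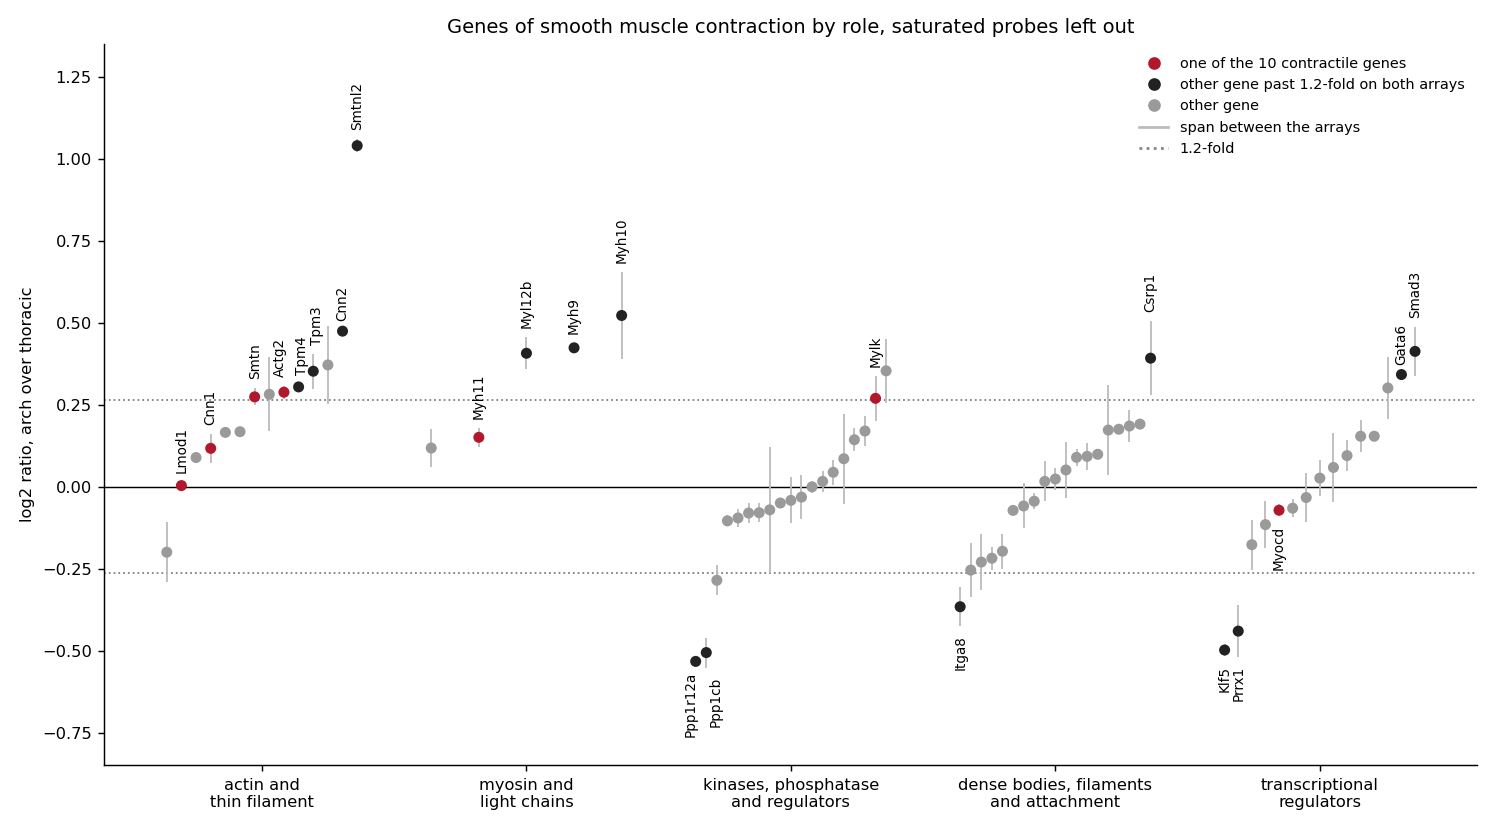
Log2 ratio, arch over thoracic, of the 72 pathway genes on unsaturated probes, ordered by size within 5 lists by role. Points are means of both arrays, grey lines span the arrays and dotted lines mark 1.2-fold; red points are the contractile genes, which sit between -0.07 and 0.29, black points other genes past 1.2-fold on both arrays, with the myosin phosphatase subunits Ppp1r12a and Ppp1cb lowest.

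Several marker lists of other cells had larger medians than the contractile genes. Outside the 10 genes, 10 smooth muscle markers had a median of 0.01, of which 3 were higher in the arch pool and 1 was higher in the thoracic pool. In the counts of all marker lists, higher means past the 1.2-fold rule. Of all genes on unsaturated probes, 5.01% passed it towards the arch and 2.76% towards the thoracic pool. Summed signals add the unsaturated probes of a list. Heights of different probes are not comparable levels, so a sum does not measure an amount of cells. The synuclein Sncg stood at 0.91 ± 0.10 and the adhesion molecule Mcam at -0.69 ± 0.06, with a further Mcam probe at -0.24. Macrophage markers had a median of 1.18, with 7 of 11 past the 1.2-fold rule towards the arch and 0 the other way, led by Cd5l at 4.09 ± 0.13 and Gpnmb at 2.34 ± 0.14 (a further, dim Gpnmb probe at 0.25). The 4 macrophage markers past neither limit were Csf1r at 0.07 ± 0.09, Itgam at 0.04 ± 0.11, Adgre1 at -0.06 ± 0.01 and Cd14 at -0.14 ± 0.06. A further macrophage marker, Lyz2, was left out of the counts and the sum because its probe was saturated in 3 of 4 readings. The summed signal of the 11 was 49021 and 48374 in the arch pool, against 18621 and 19414 in the thoracic pool. Among the 11, the largest part was Ctss, at 24199 and 23948 in the arch pool and 10236.5 and 11014 in the thoracic pool. The saturated Lyz2 probe was brighter than Ctss in both pools. Cd5l gave 10133 and 9901 in the arch pool, against 560 and 620 in the thoracic pool. Adventitial fibroblast markers had 7 of 10 higher in the arch pool, with a median of 0.49, Lum at 1.05 ± 0.02 and Lama2 at 0.84 ± 0.06. The other 3 passed neither limit: Cd34 at 0.01 ± 0.03, and Serpinf1 at -0.18 ± 0.10 and Clec3b at -0.28 ± 0.19, both below 0 on both arrays. Gsn and Dcn sat on saturated probes and were left out. The summed signal of the 10 was 127574 and 125561 in the arch pool, against 100416 and 103321 in the thoracic pool.

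Endothelial markers had 6 of 12 higher in the arch pool, with a median of 0.44, Kdr at 1.24 ± 0.04 and Vwf at 0.87 ± 0.04 (further Vwf probes at 0.68 and, dim, at 0.03). The other 6 passed neither limit and lay between Tie1 at 0.05 ± 0.09 and Esam at 0.36 ± 0.20. The summed signal of the endothelial markers was 3070 and 2989 in the arch pool, against 2023 and 1986 in the thoracic pool. Cardiac muscle markers had 5 of 13 higher in the arch pool, with a median of 0.27, Myl7 at 3.65 ± 0.12 and Tnnt2 at 2.32 ± 0.13 (a further, dim Tnnt2 probe at 0.07). The other 8 passed neither limit, and 2 of them were below 0 on both arrays, Myl3 at -0.16 ± 0.09 and Ryr2 at -0.14 ± 0.06. The summed signal of the cardiac markers was 28939 and 31767 in the arch pool, against 23737 and 21993 in the thoracic pool. Most of that sum came from the actin Actc1, at 21183 and 24040 in the arch pool and 21109 and 19111 in the thoracic pool. Skeletal muscle markers had a median of -0.13 over 11 genes, with 7 below 0 on both arrays and 2 past the 1.2-fold rule in each direction. Towards the arch stood Myl1 at 0.73 ± 0.14 and Myh4 at 0.70 ± 0.02 (1.49 in the authors' deposited log ratios, and a further, dim probe at -0.03), and towards the thoracic pool Mybpc2 at -0.67 ± 0.08 and Tnnc2 at -0.51 ± 0.03. The skeletal markers' summed signal, 15197 and 14557 in the arch pool against 13965 and 14960 in the thoracic pool, came mostly from the actin Acta1, at 13812 and 13159 in the arch pool and 12499 and 13524 in the thoracic pool. Of the marker lists, the 2 largest genes of each were named by rule, and all others after their values were seen. Every marker compared was well above background in both pools. The part of these other cells in the small arch excess of Actg2, and in the nonmuscle myosin and Cnn2 values, was not tested.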

How the data were processed

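Per the file headers, Agilent Feature Extraction in version 8.1.1.1 wrote both scanner tables (the submitters' processing notes name 9.1.1.1). The deposited mean signals and local backgrounds are intensity values with no normalization. The authors' deposited log ratio sets processed red against green signal on a log10 scale, and the deposited value table repeats it as log10 ratios of arch over thoracic (0 and 1 of 41174 probes differed by over 0.001, column medians 0).

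The background was corrected by normexp (offset 50) and each array fitted by loess with control spots at weight 0, in limma 3.58.1 and R 4.3.3. Outlier spots (8 and 5) were dropped, spots averaged per probe, array 1 turned and both arrays averaged. Normalised signals are per channel after loess and Aquantile. A probe counted when well above background in at least 1 pool on both arrays (32176 probes), and the brightest stood for its gene. Names came from RefSeq (GRCm38.p6): 21445 probes matched by accession, 5431 by current symbol, 4636 by synonym and 9662 kept the file's name. The steps were tested on simulated data.

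The 10 genes and all lists were chosen with earlier results of these data known. Named are these 10 with every probe, up to 4 genes past 1.2-fold per pathway list and the 2 largest per marker list. Other settings for background, loess, pixel summary, saturation, probe choice, dim and outlier filters, the deposited ratios and single arrays were tried, and 1 was added after seeing the data, saturated spots at weight 0 in loess.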

Additional observations from a re-analysis of the deposited data

How the results depend on the processing

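Without loess, the median of the 7 unsaturated contractile genes was 0.029 (0.15 in the main setting, 0.12 to 0.18 on single arrays), of the thin filament list 0.14, of the myosin list 0.21 and of the dense body list -0.031, with 591 genes past 1.2-fold towards the arch and 242 towards the thoracic pool. The number of unsaturated contractile genes past 1.2-fold, 1 in the main setting, was 0 without loess, 0 without background subtraction, 0 with saturated spots at weight 0 (chosen after seeing the data), 2 with median pixel signals and 1 to 3 on single arrays, where Mylk and Smtn joined Actg2 on array 1 alone. None of the 7 passed the 2-fold rule in any setting run. The median over all 10 genes was 0.22 in the main setting and -0.024 without loess, and in both it fell between ratios of saturated probes. On single arrays it was 0.08 to 0.30 and fell between unsaturated genes, but the saturated ratios still shifted which ones. It is not read as a measure of the contractile genes. Over all genes, the 2-fold counts were 196 in the arch and 66 in the thoracic pool without an offset, and 232 and 77 in both the deposited log ratio and the value table. The 1.2-fold counts were 1094 in the thoracic pool without an offset, and 1835 in the arch and 1224 in the thoracic pool in the deposited log ratio (1834 and 1224 in the value table). On single arrays they were 1558 to 1728 in the arch and 1003 to 1137 in the thoracic pool, since the rule then asks for 1 array only. List medians on single arrays ran from 0.21 to 0.27 (thin filament), 0.36 to 0.41 (myosin), -0.033 to 0.036 (dense bodies) and -0.030 to 0.041 (transcription). With the median over a gene's probes the myosin list was at 0.22 and the kinase list at 0.023, and the kinase list was at -0.060 without an offset and -0.057 in both deposited forms. The cause of these shifts was not tested. No paired analysis was possible because each array holds 1 pool of each segment and the pools have no replicates. Dim probes (Smtn, Klf5, Acta2 probe 5, Myocd probe 2) lie near background, where the offset narrows ratios, and at the bright end saturation left Acta2, Tagln and Myl9 unmeasured at their brightest probes.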
